A study of Mus musculus with 8 samples.

Results

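The 8 genes described here, Atm, Atr, Prkdc, Chek1, Chek2, Brca1, Trp53bp1 and Parp1, encode the kinases, mediators and break sensor of the DNA damage response. They were taken by gene name from the 54532 genes of the deposited count table, with earlier results of these data known, and each name matched 1 gene. All 8 averaged at least 10 counts per library and entered the tests.

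In mammalian cells, ATM and DNA-PKcs, the product of Prkdc, are kinases recruited to broken DNA ends, and ATR is the related kinase recruited to single-stranded DNA at stalled replication forks. ATM signals through the checkpoint kinase CHK2 and ATR through CHK1, which delay the cell cycle, while BRCA1 and 53BP1 act at damaged chromatin in the choice between homologous recombination and end joining. PARP1 binds DNA breaks and marks the proteins around them with poly(ADP-ribose). An eroded telomere is read by this system as a DNA end, which is why these genes are of interest in cells that lack telomerase reverse transcriptase (TERT).

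The libraries are RNAseq of FACS-sorted mG+ (GFP+) cells from female mice aged 8 months. KO mice were Tie2e-cre; TERTfl/fl; mTmG and WT littermates were Tie2e-cre; TERT+/+; mTmG, so that both genotypes carried Cre and the mTmG reporter, which replaces membrane Tomato with membrane GFP where Cre has acted. The Tie2e promoter drives Cre in endothelial cells (EC), and Tert was deleted only where Cre had acted. The mice were fed either high fat diet (HFD), from which subcutaneous adipose tissue (SAT) was taken, or chow, from which SAT, visceral adipose tissue (VAT) and skeletal muscle were taken. This gives 4 pairs, each of 1 WT and 1 KO library. The sources used here do not say whether mice were pooled or gave more than 1 tissue.

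Library totals ranged from 6214269 to 18855772 counts, and 3 counts, the floor used for bounds, corresponded to 0.184 to 0.434 counts per 1e6 counts (CPM, scaled by TMM). All 14 endothelial markers on the list were detected in every library, with a summed level of 403 to 834 CPM in SAT and 2162 to 3100 CPM in VAT and muscle, while 5 pan-leukocyte genes summed to 3476 to 7537 CPM, so RNA of both was present. The targeted gene, Tert, counted 114 in the WT and 0 in the KO library of SAT on HFD, 70 against 11 on chow, and 24 against 7 in muscle. VAT went against its labels, with 3 counts in the library labelled WT and 9 in the library labelled KO, so that for VAT the names WT and KO below stand for the labels alone. The WT SAT chow library stood apart, with 299 CPM of the nuclear RNA Malat1 against 2176 to 6005 CPM in the others, and calls that rest on it are also given without it. In these bulk libraries, fewer cells of a type and less RNA per cell cannot be told apart.

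The promoters of the genes whose levels differed most between tissues are shown first, because Parp1 was the member called in a comparison of tissues and Brca1, Chek1 and Chek2 had their highest levels in muscle, where genes of dividing cells were also highest. Each line gives the 250 bases before the RefSeq start on GRCm38.p6, 5′ to 3′ on the gene's own strand, with capitals marking matches on either strand to the E2F-type motif TTTNNCGC, the CHR motif TTTGAA or the CCAAT box, which are found in promoters of cell cycle genes. Parp1 lies at chr1:180568641-180568890 on the plus strand, Brca1 at chr11:101551956-101552205 on the minus strand, Chek1 at chr9:36726659-36726908 on the minus strand, and Chek2 at chr5:110839733-110839982 on the plus strand.
Parp1: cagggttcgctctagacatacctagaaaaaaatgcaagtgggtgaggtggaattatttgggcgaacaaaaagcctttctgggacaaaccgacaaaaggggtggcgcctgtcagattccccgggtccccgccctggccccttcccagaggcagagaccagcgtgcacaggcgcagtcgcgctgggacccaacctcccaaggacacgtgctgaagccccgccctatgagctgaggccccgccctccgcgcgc
Brca1: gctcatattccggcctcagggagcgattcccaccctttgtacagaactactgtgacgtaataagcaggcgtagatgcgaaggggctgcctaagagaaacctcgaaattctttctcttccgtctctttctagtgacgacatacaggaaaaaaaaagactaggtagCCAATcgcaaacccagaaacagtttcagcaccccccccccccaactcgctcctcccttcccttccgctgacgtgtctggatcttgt
Chek1: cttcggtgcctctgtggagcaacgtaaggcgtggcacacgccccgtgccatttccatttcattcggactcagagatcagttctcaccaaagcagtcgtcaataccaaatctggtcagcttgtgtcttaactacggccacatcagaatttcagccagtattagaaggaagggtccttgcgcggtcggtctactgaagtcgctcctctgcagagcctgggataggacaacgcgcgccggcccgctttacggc
Chek2: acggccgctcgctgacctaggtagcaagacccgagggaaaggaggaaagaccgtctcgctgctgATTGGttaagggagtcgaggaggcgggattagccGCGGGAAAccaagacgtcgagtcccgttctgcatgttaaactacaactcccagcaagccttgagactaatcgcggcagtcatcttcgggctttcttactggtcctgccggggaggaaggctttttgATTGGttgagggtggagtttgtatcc

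Of the 32851 promoters in the RefSeq table, 4.28% held the E2F-type motif, 16% the CHR motif and 33.8% the CCAAT box in this window. The Chek2 promoter held 1 E2F-type match, on the minus strand 152 bases before the start, and 2 CCAAT boxes, while the Brca1 promoter held 1 CCAAT box, 86 bases before the start. Neither the Parp1 nor the Chek1 window held any of the 3 motifs, and the Chek1 window lies inside the gene as the count table draws it, since the table's gene ends at 36727065. Sequences were found for 7 of the 8 members, all but Prkdc. Atm had 1 CCAAT box, and Atr and Trp53bp1 had no match. These matches describe the letters in the window and not the binding of a factor.

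Levels of different genes were compared per kilobase (kb) of gene length. Parp1 was by far the highest, with a median of 24.2 CPM per kb over the 8 libraries and a range of 11.5 to 51.7. Atm followed with a median of 5.81 CPM per kb, Prkdc with 4.14, Trp53bp1 with 3.56, Chek2 with 2.88 and Atr with 1.77. Brca1 and Chek1 were lowest, with medians of 0.85 and 0.80 CPM per kb. The ranges of all neighbours in this order overlapped over the libraries, Parp1 and Atm included, since the lowest Parp1 value of 11.5 lay below the highest Atm value of 13.2 CPM per kb. The middle of the order depends on the length used, since the table counts 23629 bases for Atr and its longest coding transcript has 8102, with which Atr had a median of 5.15 CPM per kb and Trp53bp1 one of 5.23.

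**Figure D1:**
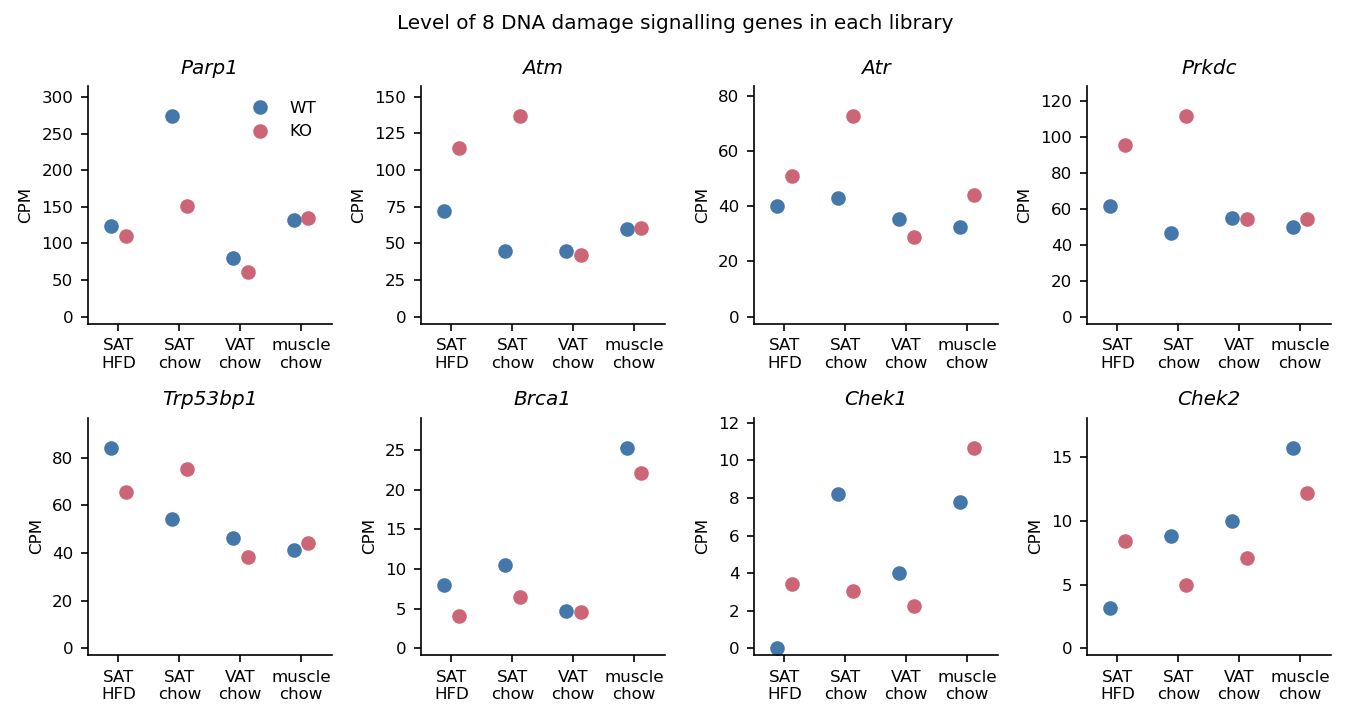
Level of each member in each library, in CPM on a linear axis that starts at 0, with 1 point per library (blue WT, red KO). Brca1 is highest in both muscle libraries (25.3 and 22.1 CPM), Parp1 is highest in WT SAT chow (274 CPM), and Chek1 is at 0 in WT SAT HFD.

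The first question was whether loss of Tert changed these genes across tissues and diets. No member passed the threshold: edgeR's quasi-likelihood test, with tissue and diet as a block, called none of the 8 members, against 0.00589% of all 16971 genes. None of the 8 had an unadjusted p under 0.05 either (1.63% of all genes had), and DESeq2's Wald test also called 0 members (0.112% of all genes). The fitted log2 difference of KO over WT was 0.55 for Atm (SE 0.317, edgeR adjusted p = 0.9996), 0.51 for Prkdc (SE 0.265), 0.31 for Atr (SE 0.249) and 0.31 for Chek1 (SE 1.17). On the lower side it was −0.46 for Brca1 (SE 0.390), −0.35 for Parp1 (SE 0.224), −0.11 for Chek2 (SE 0.520) and −0.02 for Trp53bp1 (SE 0.231). The median was 0.15 over the members and 0.03 over all genes tested. Without the VAT pair again 0 members were called, with Atm at 0.79 (SE 0.368) and Prkdc at 0.70 (SE 0.326). Without the SAT chow pair, which holds the library that stood apart, 0 were called and the values were smaller, 0.19 for Atm (SE 0.202), 0.25 for Prkdc (SE 0.188), 0.16 for Atr (SE 0.228) and −0.19 for Parp1 (SE 0.159). Brca1 was lower in KO in 4 of 4 pairs, with an exact two-sided sign-flip p of 0.125, the smallest that 4 pairs can give, but the interval of the VAT pair included 0, and with the gene length trend described below removed it was lower in 3 of 4.

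Within a pair there is 1 library per genotype, so a difference describes those libraries and its 95% interval (exact Clopper-Pearson) covers counting error only. A member was counted as beyond 2-fold where its whole interval lay past 2-fold. In SAT on HFD 1 member was higher by this rule, against 12.9% of all genes higher and 10.9% lower. In SAT on chow 2 members were higher, against 19.1% of genes higher and 11.5% lower. In VAT none of the members passed, against 2.4% higher and 2.09% lower, and in muscle none passed, against 2.76% higher and 2.01% lower. No member was beyond 2-fold lower in any pair. By the looser rule of an interval clear of 0, 8 members differed in SAT on HFD (72.6% of all genes), 8 in SAT on chow (81.3%), 5 in VAT (51.3%) and 3 in muscle (55.9%).

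**Figure D2:**
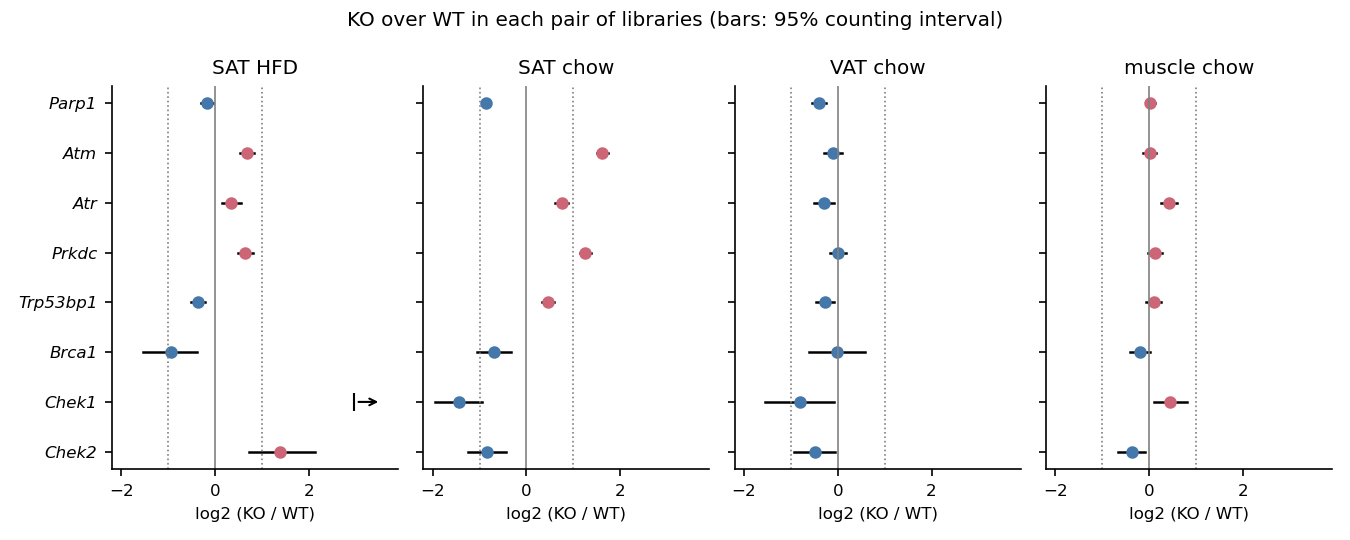
Log2 ratio of KO to WT for each member in each pair of libraries, with 95% counting intervals as bars, red points above 0 and blue points below, and dotted lines at 2-fold. Atm and Prkdc lie past 2-fold in SAT on chow, and all 8 points lie below 0 in VAT. Chek1 in SAT on HFD, where WT had no count, is an arrow from 7.83-fold, the ratio to the floor of 3 counts and not an interval limit.

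Atm (chr9:53439149-53536740, minus strand, GRCm38) encodes the kinase that responds to broken ends. It had 72.2 CPM in WT and 115 CPM in KO for SAT on HFD, 44.5 and 137 CPM for SAT on chow, 44.9 and 41.7 CPM for VAT, and 59.8 and 60.3 CPM for muscle. The KO libraries of SAT were thus the highest of the 8, and in VAT and muscle the libraries of a pair differed by less than counting error. The log2 ratio was 0.68 (0.53 to 0.82) in SAT on HFD and 1.62 (1.5 to 1.74) in SAT on chow, but −0.10 (−0.29 to 0.08) in VAT and 0.01 (−0.13 to 0.15) in muscle.

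Prkdc (chr16:15637866-15842235, plus strand), the catalytic subunit of the end-joining kinase, had 61.5 CPM in WT and 95.8 CPM in KO for SAT on HFD and 46.7 and 112 CPM for SAT on chow. In VAT it had 54.6 CPM in both genotypes, and in muscle 49.8 and 54.5 CPM. It followed Atm: higher in KO in both SAT pairs, by 0.64 (0.48 to 0.80) and 1.26 (1.13 to 1.38) on the log2 scale, with intervals that included 0 in the others. Over the 8 libraries Atm and Prkdc had a Pearson r of 0.93 on log2 CPM, a description over libraries that share depth and scaling.

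Atr (chr9:95857597-95951781, plus strand), the kinase of stalled forks, had 40.2 and 51.0 CPM in SAT on HFD, 43.2 and 72.7 CPM in SAT on chow, 35.5 and 28.9 CPM in VAT, and 32.7 and 44.1 CPM in muscle, WT first. Its log2 ratio was 0.34 (0.14 to 0.55), 0.75 (0.62 to 0.89), −0.30 (−0.52 to −0.08) and 0.43 (0.26 to 0.60) in that order. Atr was therefore higher in KO in 3 pairs and lower in the library labelled KO in VAT, each time by less than 2-fold.

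The larger differences in SAT on chow stood beside a trend on gene length in that pair. The median log2 ratio of all genes went from −0.58 for genes over 1000 and up to 2000 bases long to 0.75 for genes over 8000 bases, a class in which Atm, Atr, Prkdc, Trp53bp1 and Brca1 all fall. In SAT on HFD the same classes had medians of −0.07 and 0.08, in muscle −0.01 and 0.00, and in VAT, in the opposite direction, 0.15 and −0.12. With the trend at its own length taken off, Atm in SAT on chow went from 1.62 to 0.92 and Prkdc from 1.26 to 0.29, so that none of the members remained beyond 2-fold. Atr went from 0.75 to −0.83 and Trp53bp1 from 0.47 to −0.58, and both changed direction, while Brca1 went from −0.68 to −1.18. In VAT the same step took Atr from −0.30 to −0.05. Both Atr values used the table length of 23629 bases, while its longest coding transcript has 8102. At 7959 bases the trend was 0.43 in SAT on chow and −0.07 in VAT. The first of these is below the Atr ratio of 0.75, so the change of direction of Atr rests on the table length. Stromal genes summed to 777 CPM in WT and 3392 CPM in KO in this pair and T cell genes to 3495 and 1428 CPM; the part of these cells and of the length trend in the result was not tested beyond the removal of the trend.

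**Figure D3:**
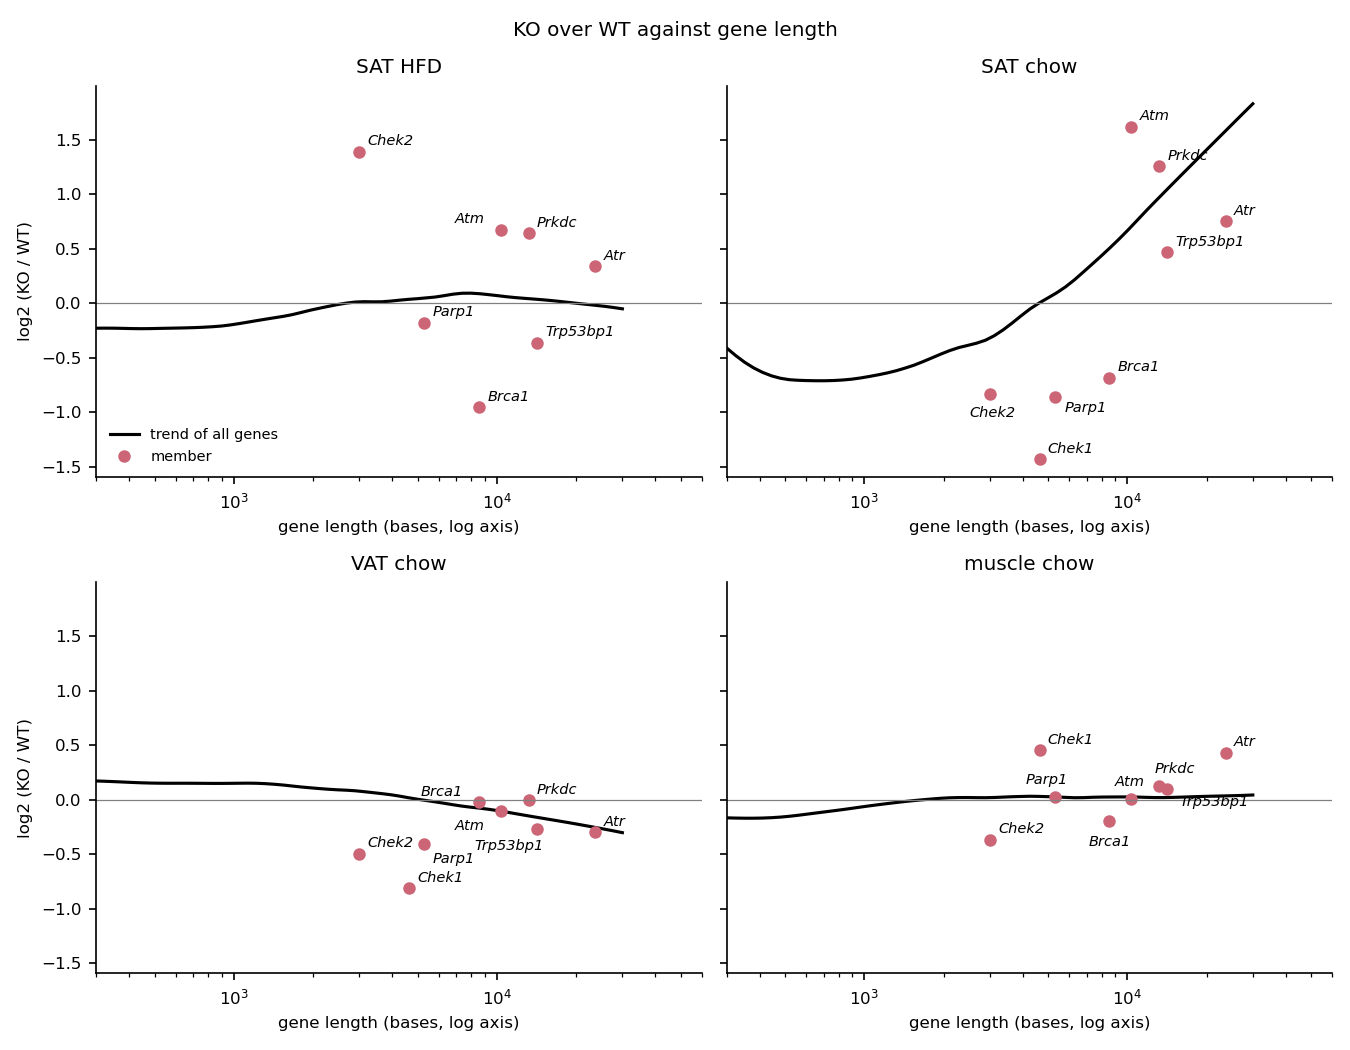
Log2 ratio of KO to WT against gene length (log axis) in each pair, with the lowess trend of all genes as a line and the members as points (Chek1 in SAT on HFD, with no count in WT, is left out). In SAT on chow the trend climbs with length and Atm and Prkdc lie above it by 0.92 and 0.29, while Atr and Trp53bp1 lie below it; in the other pairs the trend is flatter.

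Chek1 (chr9:36708482-36727065, minus strand) encodes CHK1, the kinase downstream of ATR. It was the least counted member, with 0 counts (WT) and 44 counts (KO) in SAT on HFD, 133 and 49 counts in SAT on chow, 36 and 31 counts in VAT, and 127 and 145 counts in muscle. In SAT on HFD it was at least 7.83-fold higher in KO, against the floor of 3 counts. Such zeros were common in that WT library: 31.1% of the 3934 genes between 22 and 88 counts in KO SAT HFD had 0 counts in WT, compared to 12.7% for the same counts in SAT on chow and 1.21% in VAT. Clspn, the mediator through which ATR activates CHK1, also had 0 counts there in WT and 139 in KO. The direction turned in the chow-fed SAT pair, where Chek1 had 8.23 CPM in WT and 3.04 CPM in KO, a log2 ratio of −1.43 (−1.94 to −0.95). With depth taken into account, the log2 ratio was −0.81 (−1.56 to −0.09) in VAT and 0.45 (0.10 to 0.81) in muscle.

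Chek2 (chr5:110839979-110874145, plus strand), the kinase downstream of ATM, had 3.18 CPM in WT and 8.42 CPM in KO for SAT on HFD, 8.85 and 4.96 CPM for SAT on chow, 9.99 and 7.09 CPM for VAT, and 15.8 and 12.2 CPM for muscle. The library labelled KO was lower in the 3 chow pairs and higher on HFD. On HFD the WT value rests on 22 counts, in the library with the lowest total and the many zeros described for Chek1. Without VAT, whose labels could not be checked by the low Tert counts, 2 of 3 pairs were lower. The log2 ratio was 1.39 (0.73 to 2.14) on HFD and −0.83 (−1.25 to −0.43), −0.49 (−0.92 to −0.07) and −0.37 (−0.66 to −0.08) on chow, in the order SAT, VAT and muscle.

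Brca1 (chr11:101488764-101551955, minus strand), which acts in homologous recombination, had 7.95 CPM in WT and 4.09 CPM in KO for SAT on HFD and 10.5 and 6.51 CPM for SAT on chow. It had 4.66 and 4.60 CPM in VAT and 25.3 and 22.1 CPM in muscle. The intervals of the SAT pairs lay below 0, at −0.95 (−1.53 to −0.39) and −0.68 (−1.05 to −0.32), and those of VAT and muscle, at −0.02 (−0.60 to 0.58) and −0.20 (−0.42 to 0.02), did not exclude 0.

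Trp53bp1 (chr2:121193281-121271407, minus strand) encodes 53BP1, which favors end joining over resection. It had 84.3 CPM in WT and 65.6 CPM in KO for SAT on HFD, 54.4 and 75.2 CPM for SAT on chow, 46.3 and 38.4 CPM for VAT, and 41.1 and 44.0 CPM for muscle. The genotypes differed by less than 2-fold in every pair and in no common direction. Trp53bp1 shares 5490 bases with Tubgcp4 on the other strand, and whether reads were counted by strand is not stated, so reads of this stretch could belong to either gene.

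Parp1 (chr1:180568924-180601254, plus strand) had 124 CPM in WT and 110 CPM in KO for SAT on HFD, 274 and 151 CPM for SAT on chow, 80.5 and 60.8 CPM for VAT, and 132 and 135 CPM for muscle. It was lower in the library labelled KO in 3 of 4 pairs, or 2 of 3 without VAT, most in SAT on chow, with a log2 ratio of −0.86 (−0.93 to −0.79), and in muscle the log2 ratio was 0.03 (−0.06 to 0.12). Averaged over the libraries Parp1 was the most counted member, with 725 to 4425 counts per library, although Atm had more in KO SAT HFD (1492 against 1424).

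The second question was how the levels differ between tissues and diets. Here each side is 1 WT and 1 KO library, with genotype as a term of the same fit, and libraries stand in for replicates. VAT against SAT on chow gave the one call: Parp1 was lower in VAT, against 5% of all genes called and 1.87% called lower. Parp1 had 60.8 and 80.5 CPM in VAT and 151 and 274 CPM in SAT on chow. The fitted difference was −1.56 on the log2 scale (SE 0.322, edgeR adjusted p = 0.0357), or 2.95-fold lower, with the median of all genes at −0.13. The call was lost without the WT SAT chow library, where the difference was −1.03 with an adjusted p of 0.0704 by edgeR, and also without the SAT HFD pair (0.0613), the muscle pair (0.0666), WT VAT (0.342) or KO VAT (0.309).

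The other members were not called between VAT and SAT on chow, although 7 of the 8, Parp1 included, had fitted values below 0. These were −0.92 for Atm (SE 0.449), −0.82 for Brca1 (SE 0.552), −0.80 for Atr (SE 0.354), −0.62 for Trp53bp1 (SE 0.327), −0.43 for Prkdc (SE 0.373) and −0.88 for Chek1 (SE 1.44), with edgeR adjusted p from 0.252 to 0.779. Chek2, at 0.31 (SE 0.707), was above 0. Without the WT SAT chow library none was called, and Atm was at −1.39 (SE 0.307, edgeR adjusted p = 0.0553), Prkdc at −0.73 (SE 0.287), and Chek1 above 0 at 0.96 (SE 2.04). Macrophage genes summed to 7961 and 8061 CPM in VAT against 421 and 850 CPM in SAT on chow, and their part in these differences was not tested.

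**Figure D4:**
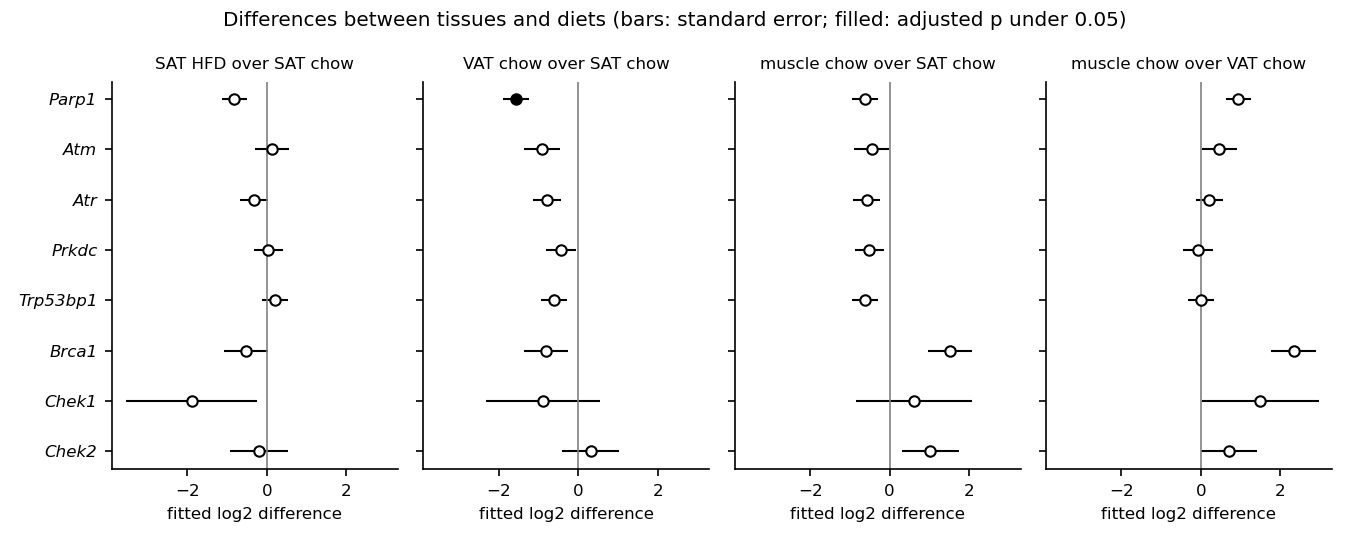
Fitted log2 difference of each member between tissues and diets (edgeR, all 8 libraries), with standard errors as bars and filled points where the adjusted p is under 0.05. Parp1 in VAT over SAT on chow is the filled point (−1.56), and Brca1 in muscle over VAT is farthest to the right (2.34).

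Muscle against VAT called none of the members, against 2.02% of all genes and 0.99% called higher. Brca1 and Parp1, 2 members, had an unadjusted p under 0.05 (12.8% of all genes had), and DESeq2's Wald test called 1 member, Brca1, against 7.41% of all genes. Brca1 had 25.3 and 22.1 CPM in muscle and 4.66 and 4.60 CPM in VAT, with a fitted difference of 2.34 (SE 0.570, edgeR adjusted p = 0.0900) or 5.06-fold. Its adjusted p was 0.00277 by DESeq2's Wald test and 0.0396 by edgeR without the SAT chow pair, a setting that called 7.49% of all genes, but 0.497 to 0.84 by edgeR with any one of the VAT and muscle libraries left out. Parp1 was at 0.94 (SE 0.318, edgeR adjusted p = 0.229), which became 0.88 with an adjusted p of 0.0489 without that pair. Chek1 had 7.79 and 10.7 CPM in muscle and 3.997 and 2.27 CPM in VAT, with a fitted difference of 1.5 (SE 1.47, edgeR adjusted p = 0.831).

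Muscle against SAT on chow also called none of the members, against 1.27% of all genes. Only Brca1, 1 member, had an unadjusted p under 0.05 (11.5% of all genes had), with a fitted difference of 1.52 (SE 0.552, edgeR adjusted p = 0.314) or 2.87-fold (1.79, adjusted p = 0.287, without the WT SAT chow library), and DESeq2's Wald test called 0 members (6.23% of all genes). Chek2 was at 1.03 (SE 0.711) and was not called. For Atm, Atr, Prkdc, Trp53bp1 and Parp1 the fitted values were below 0, from −0.45 to −0.62, none of them called.

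The muscle libraries differed from the others in the summed levels of cell type genes. Genes of dividing cells summed to 1975 and 2423 CPM in muscle, to 1471 CPM in WT SAT chow, and to 586 to 760 CPM in the other 5 libraries. Neutrophil genes summed to 20148 and 23829 CPM in muscle, with every marker on the list detected, and to 65.8 to 992 CPM elsewhere. Brca1 and Chek1 were highest in the same 3 libraries as the genes of dividing cells, namely both muscle libraries and WT SAT chow, while Parp1 was highest in WT SAT chow and had similar values of 132 and 135 CPM in muscle and 110 and 124 CPM in SAT on HFD. The part of these cell types in the levels was not tested.

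**Figure D5:**
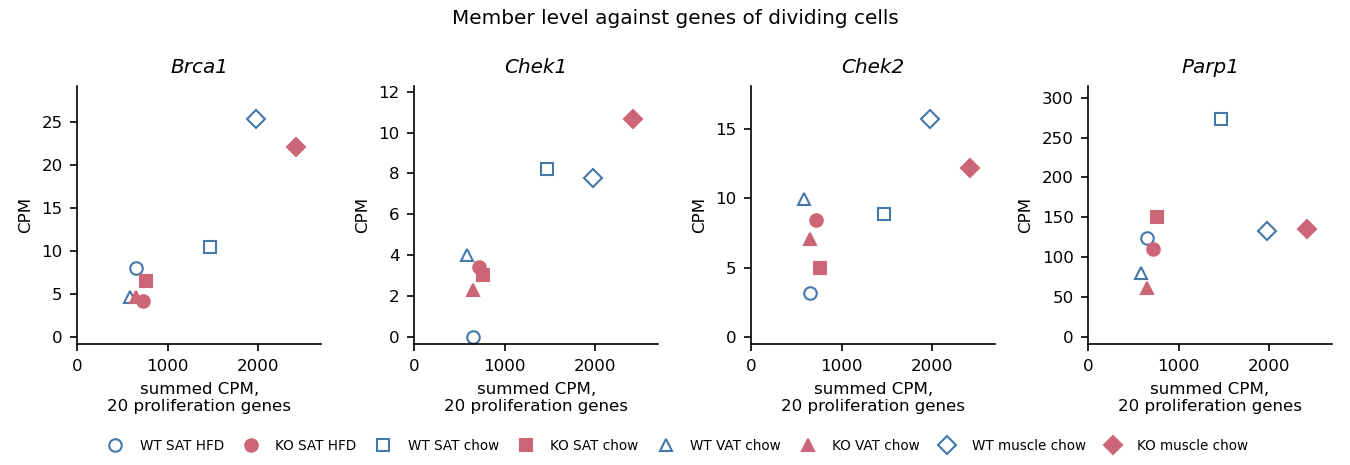
Level of Brca1, Chek1, Chek2 and Parp1 (CPM) against the summed CPM of 20 proliferation genes, 1 point per library (open blue WT, filled red KO, shape by tissue and diet). Muscle (1975 and 2423 CPM of proliferation genes) and WT SAT chow (1471 CPM) lie to the right of the other 5 libraries, and Brca1 and Chek1 are highest in these 3.

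SAT on HFD against SAT on chow called none of the members, and 0% of all genes. Of the members 1, Parp1, had an unadjusted p under 0.05, against 1577 of the 16971 genes (9.29%), and DESeq2's Wald test called 0 members (1.53% of all genes). The fitted difference of Parp1 was −0.82 (SE 0.317, edgeR adjusted p = 0.523), and −0.30 without the WT SAT chow library. Parp1 had 110 and 124 CPM on HFD against 151 and 274 CPM on chow. The others lay between −1.89 for Chek1 (SE 1.65) and 0.21 for Trp53bp1 (SE 0.326). The median of all genes was itself −0.32 in this comparison, and −0.09 with DESeq2 size factors, so that differences of this size are close to the scaling.

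The pathway around the members was read from 77 genes in 6 lists. None of the 77 was called for KO over WT, where their median was 0.01 against 0.03 over all genes. The list medians for KO over WT were 0.01 for 16 sensors and activators of ATM and ATR, 0.01 for 16 mediators at damaged chromatin, 0.06 for 13 genes of homologous recombination, −0.06 for 9 genes of end joining, −0.00 for 11 genes of ADP-ribosylation and single-strand breaks, and 0.02 for 12 checkpoint effectors. None was called between SAT on HFD and SAT on chow or between muscle and SAT on chow. In muscle over SAT on chow, Gadd45a, a damage-induced growth arrest gene, was at 2.73 (SE 0.331) without the WT SAT chow library, and Cdc25a at 2.35 (SE 0.398). Both genes were chosen after their values were seen, and that setting leaves a lone SAT chow library. With all libraries Gadd45a was at 2.04 (edgeR adjusted p = 0.0583) and Cdc25a at 1.76 (edgeR adjusted p = 0.0993), and neither was called. Without the WT or the KO muscle library, Gadd45a was at 2.21 or 1.93 and Cdc25a at 1.88 or 1.70.

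Between VAT and SAT on chow 3 of the 77 were called lower and none higher, against 1.87% of all genes lower and 3.13% higher, and the median of the 77 was −0.77 against −0.13 over all genes. Xrcc5, the KU80 subunit that loads DNA-PKcs on DNA ends, was at −2.13 (SE 0.423, edgeR adjusted p = 0.0313), with 8.55 and 6.21 CPM in VAT and 41.2 and 24.2 CPM in SAT on chow. Rpa1, which coats single-stranded DNA and brings in ATR, was at −1.92 (SE 0.385, edgeR adjusted p = 0.0328). Pkmyt1, an inhibitory kinase of CDK1, was at −1.88 (SE 0.415, edgeR adjusted p = 0.0428). As for Parp1, both VAT libraries lay below both libraries of SAT on chow for Xrcc5, and the share of all genes that did so was not counted. All 3 calls were lost without the WT SAT chow library, with Xrcc5 at −1.7 (edgeR adjusted p = 0.0933), Rpa1 at −1.22 (0.0619) and Pkmyt1 at −1.45 (0.114), and also without either VAT library (adjusted p from 0.113 to 0.394) or the muscle pair (0.052 to 0.118). Rpa1 was also lost without the SAT HFD pair (0.0512), and Pkmyt1 with DESeq2 size factors (0.0508).

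Between muscle and VAT 4 of the 77 were called higher and none lower, against 0.99% of all genes higher and 1.03% lower, with a median of 0.55 against 0.06 over all genes. Cdc25a, the phosphatase that CHK1 targets for degradation, was at 2.36 (SE 0.418, edgeR adjusted p = 0.0351), with 58.4 and 65.4 CPM in muscle and 12.4 and 11.6 CPM in VAT. Pkmyt1 was at 2.27 (SE 0.419) and Gadd45a at 2.18 (SE 0.398), both with an edgeR adjusted p of 0.0393. With any one of the VAT and muscle libraries left out, the adjusted p of Cdc25a, Pkmyt1 and Gadd45a was 0.158 to 0.401. The 13 genes of homologous recombination had the highest list median here, 1.36, with none of them called, and the other list medians lay between 0.44 and 0.82.

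Within pairs, the wider lists showed where the SAT pairs stood. In SAT on chow 21 of 77 had a log2 ratio above 0 and 56 below, with a median of −0.53 against 0.00 over all genes, 5 beyond 2-fold higher and 9 lower, where 19.1% and 11.5% of all genes were. Among these were Cdkn1a, the p21 inhibitor induced by p53, with 34.9 CPM in WT and 143 CPM in KO, and Xrcc6, the KU70 subunit, with 51.1 and 22.4 CPM. The 34.9 CPM of Cdkn1a was its lowest value in any library. It comes from WT SAT chow, the library that stood apart. This pair also has the trend on gene length, which was not removed from the values of the 77, and its part in them was not tested. Cdkn1a was lower in KO in SAT on HFD (113 and 61.6 CPM) and in muscle (276 and 182 CPM), with both intervals below 0, and in VAT it had 389 and 437 CPM. In SAT on HFD 5 of the 74 measured were beyond 2-fold higher and 1 lower (12.9% and 10.9% of all genes), and of those 5, Clspn, Bard1 and Lig4 had 0 counts in WT. Bard1, the partner of BRCA1, had 0 counts in WT and 99 in KO there, and 51 and 20 in VAT. In VAT none of the 75 measured was higher and 2 were lower (2.4% and 2.09% of all genes), and in muscle 2 of 77 were higher and none lower (2.76% and 2.01%).

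Atm, Brca1, Chek2 and Prkdc each start within 1000 bases of a protein-coding gene that runs the other way. Nbr1, whose start lies 194 bases from that of Brca1, had 86.8 to 112 CPM in all 8 libraries, while Brca1 ranged from 4.09 to 25.3 CPM. Mcm4, a subunit of the replicative helicase whose start lies 466 bases from that of Prkdc, had 140 CPM in WT and 61.5 CPM in KO for SAT on chow, where Prkdc had 46.7 and 112 CPM. Npat, 307 bases from Atm, had 19.5 and 37.8 CPM in that pair, in the same direction as Atm, and Hscb, 202 bases from Chek2, had 25.4 and 7.01 CPM.

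The genes whose log2 CPM was most like each member over the 8 libraries were named among 12367 genes that averaged at least 50 counts. For Chek1 they were Gm10698, Cdc45 and Plekhb1 (r = 0.985, 0.985 and 0.984), where Cdc45 is a replication factor. Chek1 had 0 counts in WT SAT HFD, so its log2 CPM there was set by the prior count of 0.5. How far its r values, that with Chek2 included, rest on this point was not tested. For Brca1 they were Smim5, Tacc3 and Lbr (r = 0.980, 0.980 and 0.977), where Tacc3 is a mitotic spindle protein. For Parp1 they were Smarcd2, Dhx29 and Gemin5 (r from 0.974 to 0.983), for Atm Adamts6, Tnrc6a and Fam208b (r from 0.989 to 0.998), and for Atr Frat1, Urb2 and Ercc6l2 (r from 0.956 to 0.976). For Prkdc they were Celf2, Krit1 and Gm44226 (r from 0.954 to 0.970), for Trp53bp1 Lrch1, Zfp827 and Kcnc1 (r from 0.971 to 0.973), and for Chek2 Tarm1, Slpi and Zfand4 (r from 0.954 to 0.955). With 8 points and 12367 genes, values of this size describe these libraries alone. Among the members themselves r ranged from −0.79 for Chek2 with Trp53bp1 to 0.93 for Atm with Prkdc, with Atm and Atr at 0.84 and Chek1 and Chek2 at 0.85.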

How the data were processed

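RNAseq was measured in mG+ cells of 4 pairs of libraries. The values are counts per Ensembl gene as the authors deposited them: whole numbers, not normalized. The submitters' processing notes name HISAT2 2.0.5 and GRCm38 (mm10); the counting program, strand setting and read length are not given in the sources used here. The labels name column-based RNA isolation, the paper Trizol. All value columns were mapped to a sample.

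Counts were scaled by TMM over all genes and tested with edgeR 4.0.16 (quasi-likelihood, robust dispersions, R 4.3.3) over the 16971 genes that averaged at least 10 counts, on pair and genotype (3 residual degrees of freedom), adjusted by Benjamini-Hochberg at 0.05. P-values measure only the spread between these libraries, which may be technical. With 1 library per genotype in each pair, this spread is how far KO over WT varies from pair to pair. A KO effect limited to some tissues or diets would therefore count as spread. Within pairs, the log2 ratio used a prior count of 0.5. SEs were derived from the fitted value and its F statistic. The trend on gene length was a lowess fit (span 0.3). The edgeR fit of KO over WT, and the coverage of the within-pair interval in the SAT HFD pair, were tested on simulated data.

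The members and lists were chosen with earlier results of these data known; 1 listed gene, Shld3, was not used here, and Adprs was read as Adprhl2. Named genes were the members, Tert, fixed partners, divergent neighbors within 1000 bases, called genes of the 6 lists (1 of them is not reported here), and the 3 genes most correlated with each member. Alternatives were DESeq2 1.42.0 (size factors and Wald test), library totals, upper quartile, TMM without mitochondrial genes, other filters, no robust dispersions, no block, no genotype term, removal of the length trend, a prior count of 5, and each pair or library left out. Lengths from the longest coding transcript of GENCODE M21 were added after seeing the data. Promoters are from RefSeq.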

Additional observations from a re-analysis of the deposited data

Results flagged for a closer look

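Members whose counting intervals lay above 0 in one pair and below 0 in another are given here, with the pair of pairs that differ most. With 1 library per genotype in each pair, none of these differences was tested. Chek1 was higher in KO in SAT on HFD, where WT had no count, and lower in SAT on chow, and the difference between the fitted log2 ratios was 7.53, a value set by the prior count. Chek2 was higher in KO on HFD (1.39) and lower in SAT on chow (−0.83), a difference of 2.22. Its WT value on HFD rests on 22 counts, in the library with the lowest total. Atr was higher in SAT on chow (0.75) and lower in VAT (−0.30), a difference of 1.05, and with the length trend removed the SAT chow value was −0.83. That value used the table length of 23629 bases. At 7959 bases, near its longest coding transcript, the trend was 0.43, below the ratio of 0.75. Trp53bp1 was lower in SAT on HFD (−0.36) and higher in SAT on chow (0.47), a difference of −0.83, and with the length trend removed the SAT chow value was −0.58.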

How the results depend on the processing

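The call of Parp1 in VAT over SAT on chow held under every scaling, filter and tool tried, with fitted values from −1.38 to −1.59. Of all 16971 genes, 849 were called there in the main fit, 701 with upper quartile scaling and 2305 by DESeq2's Wald test. The Parp1 call was lost with some pairs or libraries left out, as the report gives, so the number of members called ranged from 0 to 1. Without the SAT HFD pair 5.38% of all genes were called, and without the muscle pair 3.51%. In muscle over VAT the number was 1 by DESeq2's Wald test (7.41% of all genes) and ranged from 0 to 2 with pairs or libraries left out (0.231% to 7.49% of all genes), and the cause was not tested. With an interval clear of 0 in place of beyond 2-fold, the members counted were 8 in SAT on HFD, 8 in SAT on chow, 5 in VAT and 3 in muscle, a looser rule by construction. With the length trend removed, 0 members were beyond 2-fold in SAT on chow. No result called by a test changed direction. The fitted values, and the within-pair values whose interval was clear of 0, that did were these. Trp53bp1 for KO over WT was 5.66e-05 with DESeq2 size factors, 0.10 with library totals and 5.28e-05 with upper quartile scaling, and in muscle over VAT it was −0.061 with DESeq2 size factors, −0.059 with upper quartile scaling and −0.060 by DESeq2's Wald test. Chek2 in SAT on HFD over SAT on chow was 0.035 with DESeq2 size factors, 0.037 by the Wald test, 0.10 with library totals, 0.090 with upper quartile scaling and 0.10 without the length trend, and for KO over WT it was 0.0015 with library totals. Chek1 for KO over WT was −0.055 without the block, and Prkdc in SAT on HFD over SAT on chow was −0.0088 without a genotype term. Without the length trend, Atr for KO over WT was −0.021, and in SAT on chow Atr was −0.83 and Trp53bp1 −0.58. The Atr values used the table length of 23629 bases and not the 8102 of its longest coding transcript. Within-pair values whose interval included 0 turned as well: without the trend Brca1 was 0.058 and Prkdc 0.15 in VAT and Atm −0.015 in muscle, and with upper quartile scaling Atm was −0.047 and Parp1 −0.031 in muscle.

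With pairs or libraries left out, KO over WT ranged from −0.59 to 1.06 for Chek1, −0.56 to 0.14 for Chek2 and −0.18 to 0.10 for Trp53bp1. SAT on HFD over SAT on chow ranged from −0.31 to 0.96 for Atm, −1.35 to 0.78 for Chek2 and −0.24 to 0.60 for Prkdc. VAT over SAT on chow ranged from −1.86 to 0.96 for Chek1, −0.11 to 1.03 for Chek2 and −0.73 to 0.12 for Prkdc. Muscle over SAT on chow ranged from −0.97 to 0.34 for Atm, −0.33 to 2.26 for Chek1 and −0.85 to 0.030 for Prkdc. Muscle over VAT ranged from −0.24 to 0.63 for Atr, −0.47 to 0.28 for Prkdc and −0.24 to 0.16 for Trp53bp1. A library left out leaves a lone sample that is assumed to vary like the other groups. No paired analysis by replicate number was possible because the labels give no replicate numbers; the pairs are tissue and diet. Depth limits Chek1 most, with 0 to 145 counts per library.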
